A study of Homo sapiens with 24 samples.

Results

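The response of LNCaP control cells to the androgen dihydrotestosterone (DHT) was read from 6 of the 24 Affymetrix HG-U133 Plus 2.0 expression arrays in the series, chosen by their titles as the LNCaP shControl arrays, 3 treated with DHT and 3 with ethanol (EtOH), replicates A to C each. LNCaP is a human prostate cancer line, derived from a lymph node metastasis, that depends on androgen and carries a rearranged, highly expressed ETV1 gene. The treated cells received 10 nM DHT for 16 h and the vehicle cells received EtOH for the same time. Both groups had been transfected with a control RNA interference construct 24 h before 2 days of growth without hormone, so both were androgen-starved control cells with ETV1 not targeted. Titles and descriptions call that construct shControl, and another label field calls it siControl. For comparison, the same treatments were read in LNCaP cells given a hairpin against ETV1 (shETV1) and in VCaP siControl cells, each with 3 DHT and 3 EtOH arrays. VCaP is another androgen-dependent prostate cancer line, from a vertebral metastasis, with the TMPRSS2-ERG fusion. The design text calls the replicates biological. Each group is 1 cell line, at 1 dose and 1 time.

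DHT is made from testosterone by 5-alpha-reductase and is the strongest natural ligand of the androgen receptor. The bound receptor leaves its chaperones, enters the nucleus and binds DNA at androgen response elements, which are paired copies of a hexamer related to AGAACA, together with pioneer factors such as FOXA1. In prostate luminal cells it drives secreted proteases such as KLK3 (prostate-specific antigen), lipid synthesis and secretion, and it lowers another set of genes that are highest after androgen withdrawal.

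The 6 arrays were alike in brightness, with median intensities between 42.7 and 44.8. Over all probe sets the lowest correlation between arrays was 0.991 within DHT and 0.991 within EtOH, and no DHT array correlated with an EtOH array above 0.982. The ratio of 3' to 5' control probe sets, a sign of RNA degradation, averaged 1.09 ± 0.003 with DHT and 1.11 ± 0.03 with EtOH for GAPDH, and 2.76 ± 0.14 with DHT and 3.12 ± 0.35 with EtOH for ACTB (SD, n = 3 each). Exact two-sided permutation tests gave p = 0.4 for GAPDH and p = 0.2 for ACTB, where 0.1 is the smallest p that 3 against 3 arrays allow. With the ACTB ratio as a covariate 1838 genes rose and 2471 fell, and its part in the response was not tested further. Of 20 luminal epithelial markers 19 lay above the filter on low values, against 4 of 9 basal markers and 4 of 15 neuroendocrine markers. The same 19 passed the filter in VCaP cells too, so they do not tell the 2 lines apart.

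DHT changed 5237 of 12823 genes tested, which is 40.8%, at a Benjamini-Hochberg adjusted p below 0.05 in limma. Of these, 2382 rose (18.6% of all genes tested) and 2855 fell (22.3%). Most changes were small. The median size was 0.36 log2 units among risen genes and 0.35 among fallen genes, and 1614 risen and 2017 fallen genes changed by less than 0.5. A change of at least 1 log2 unit, was reached by 260 risen genes (2.03%) and 204 fallen genes (1.59%). The arrays of the 2 treatments did not overlap for 6383 genes (49.8%), with DHT above for 22.7% and below for 27.1%. Which direction held more calls depended on scaling. With each array centred on its median 2871 genes rose and 2420 fell, while quantile normalization gave 2256 risen and 3192 fallen genes. The median change over all genes was -0.01 as deposited, 0.02 after centring and -0.03 after quantile normalization. All changes below are DHT minus EtOH on the log2(intensity + 16) scale, which understates changes of dim genes, with ± giving the standard error of the fit on 3 against 3 arrays.

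**Figure D1:**
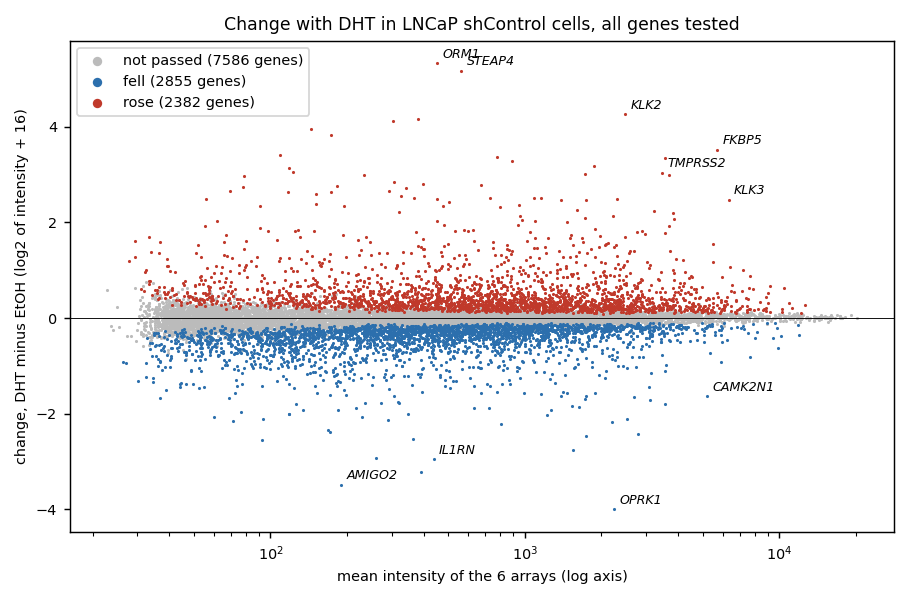
Change with DHT (vertical axis, log2 of intensity + 16, DHT minus EtOH) against the mean intensity of the 6 arrays (horizontal log axis) for 12823 genes, with the 2382 risen genes in red, the 2855 fallen genes in blue and the other 7586 in grey. The highest change was 5.33 (ORM1) and the lowest -4.00 (OPRK1), while the 25th and 75th percentiles were -0.18 and 0.14.

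The 15 genes that rose most had changes between 3.05 and 5.33 log2 units. ORM1, which encodes the acute-phase plasma protein orosomucoid, read 872, 897 and 914 with DHT, against 5.75, 3.63 and 11.2 with EtOH. It gave the largest rise of all genes, 5.33 ± 0.11 (adjusted p = 6.79e-11), and its EtOH arrays lay at the bottom of the intensity range. STEAP4, a metalloreductase of the membrane, read 1099, 1174 and 1051 with DHT, against 15.3, 11.9 and 18.6 with EtOH. Its change of 5.17 ± 0.08 (adjusted p = 1.71e-11) also ran from a dim EtOH level to a bright DHT level with no overlap. The other STEAP4 probe set above the array median gave 1.53. For 9 of the 15 the EtOH mean was below the median of every array, 42.7 or more, so the size of these rises rests on a near-background baseline. The other 6 (KLK2, FKBP5, OTULINL, NCAPD3, EAF2 and LIFR) were above it in both treatments.

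Regulators and signalling proteins among them began with SNAI2, the zinc finger repressor Slug, which read 606, 638 and 519 with DHT, against 15.1, 23.2 and 18.4 with EtOH. All DHT arrays were far above all EtOH arrays, a change of 4.11 ± 0.10 (adjusted p = 2.30e-10). EAF2, a partner of the ELL elongation factors also known as U19, read 1631, 1699.8 and 1543 with DHT, against 152, 154 and 155 with EtOH. It changed by 3.27 ± 0.06 (adjusted p = 4.68e-11) with arrays tight within each treatment. LIFR, the receptor for leukaemia inhibitory factor, read 3263, 3442 and 3414 with DHT, against 386, 349 and 338 with EtOH. Its groups did not overlap and the change was 3.18 ± 0.05 (adjusted p = 2.74e-11), but its 5 probe sets above the array median ranged from 0.34 to 3.31. FKBP5, a co-chaperone of HSP90 that binds steroid receptor complexes, read 10809, 10477 and 10147 with DHT, against 989, 917 and 795 with EtOH. This was a change of 3.52 ± 0.07 (adjusted p = 4.68e-11), or 11.5-fold on the log2(intensity + 16) scale.

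Among transporters, enzymes and structural proteins, SLC38A4, a carrier of neutral amino acids, read 319.5, 354 and 340.3 with DHT, against 9.64, 7.29 and 10.3 with EtOH, and changed by 3.82 ± 0.12. PGC, the secreted aspartic protease progastricsin, read 229, 220.4 and 226 with DHT, against 15.9, 7.62 and 11.9 with EtOH, and changed by 3.13 ± 0.13. Both were near background in every EtOH array and bright in every DHT array. NCAPD3, a subunit of condensin II, read 6680.2, 6272 and 6578 with DHT, against 611, 640.4 and 621 with EtOH. At 3.35 ± 0.05 (adjusted p = 1.01e-11) it rose with arrays that stayed close to each other within each treatment, as did CTNNA2, which encodes the adhesion protein alpha-N-catenin, at 3.40 ± 0.04. The long noncoding RNA LINC00844 read 739.6, 786 and 687 with DHT, against 26.9, 27.6 and 24.4 with EtOH, a change of 4.15 ± 0.06. The remaining members of the 15 were CCDC141 (3.96 ± 0.14), OTULINL (3.37 ± 0.08) and TMCC3 (3.05 ± 0.08), none with overlapping arrays.

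**Figure D2:**
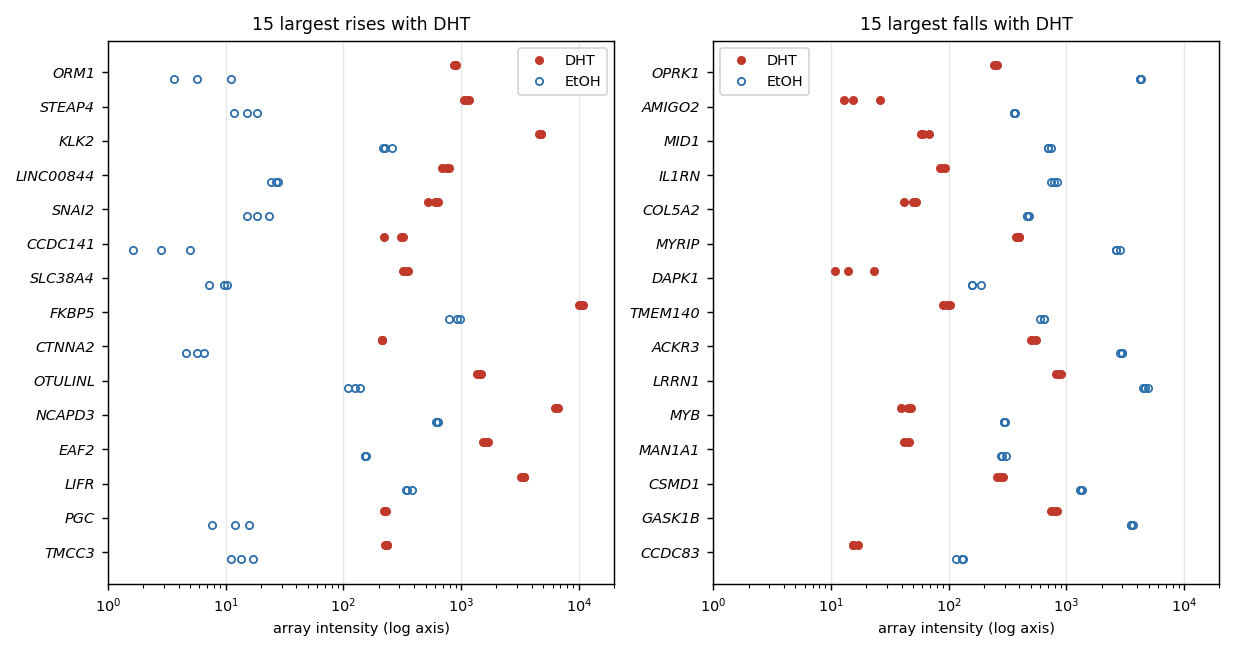
Array intensity (horizontal log axis) of the 15 genes with the largest rises (left) and the 15 with the largest falls (right), with filled red points for the 3 DHT arrays and open blue points for the 3 EtOH arrays. The treatments separate for every gene, and the EtOH points of 9 risen genes lie in the dim range, as do the DHT points of 3 fallen genes.

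Classical androgen targets, a list of 39 genes of which 35 had a usable probe set, were nearly all higher with DHT: 32 rose, 2 fell and 1 did not pass, against 18.6% risen and 22.3% fallen among all genes tested. The median change of the list was 1.95, against -0.01 for all genes, and 30 members rose by at least 1 log2 unit. The list consists of genes named in the literature for rising with androgen. Like the other lists it was drawn up with earlier results of these data known, so its counts are no independent test. KLK2, a trypsin-like kallikrein protease, read 4806, 4589.9 and 4761 with DHT, against 258, 215 and 224 with EtOH, a change of 4.26 ± 0.11 (adjusted p = 3.44e-10). KLK3, which encodes the chymotrypsin-like prostate-specific antigen, read 10707, 10518 and 10951 with DHT, against 2122, 1784 and 1859.5 with EtOH. Its change of 2.47 ± 0.07 (adjusted p = 7.66e-10) corresponded to 5.56-fold on the same scale, and KLK4, a further kallikrein of the cluster, rose by 1.45 ± 0.07. TMPRSS2, the membrane serine protease whose promoter is fused to ETS genes in many prostate cancers, read 6338, 6318 and 5854 with DHT, against 728, 796 and 693 with EtOH, and rose by 3.04 ± 0.05 (adjusted p = 3.22e-11). The probe sets used for KLK2 and KLK3 are of a type that can also bind related transcripts. Probe sets above the array median ranged from 3.19 to 4.26 for KLK2, 0.88 to 2.69 for KLK3 and 1.19 to 3.04 for TMPRSS2.

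The other risen members spanned several roles. Transcription and elongation factors included MAF (3.01 ± 0.06), AFF3 (2.33 ± 0.09), ELL2 (2.10 ± 0.09) and ZBTB16 (1.37 ± 0.04), the promyelocytic leukaemia zinc finger. Surface and signalling proteins included the cold channel TRPM8 (2.65 ± 0.10), the prostaglandin E2 receptor PTGER4 (2.79 ± 0.10), the kinase SGK1 (1.95 ± 0.06), PMEPA1 (1.82 ± 0.06), which dampens TGF-beta signalling, and the kinase CAMKK2 (1.40 ± 0.10). NDRG1, a stress and differentiation gene, rose by 2.99 ± 0.04, and SLC45A3 (prostein) by 2.47 ± 0.06. The smallest rises past the test were TPD52 (0.88 ± 0.04) and KLK15 (0.49 ± 0.09). Members that went down were ACP3 (prostatic acid phosphatase), which read 4007, 3987 and 4044 with DHT, against 5175, 5779 and 5592 with EtOH, a change of -0.46 ± 0.05 (adjusted p = 2.03e-05), and TSC22D3, the glucocorticoid-induced leucine zipper, at -0.20 ± 0.05. STEAP2 read 8733, 8849 and 8159 with DHT, against 9333, 9326 and 9448 with EtOH, and its difference of -0.13 ± 0.05 did not pass (adjusted p = 0.0613).

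The upstream regions of 4 risen genes are shown because each holds a match to the palindromic androgen response element. They span 250 bases before to 50 bases after the RefSeq start site on GRCh38.p14, on the strand of the gene, at chr19:50854665-50854964 (KLK3, plus strand), chr19:50873189-50873488 (KLK2, plus strand), chr10:58999268-58999567 (LINC00844, plus strand) and chr6:35728534-35728833 (FKBP5, minus strand). Capitals mark the best match to the 15-base motif of AGAACA, any 3 bases and TGTTCT, which has 12 fixed letters, with up to 3 mismatches allowed.
KLK3: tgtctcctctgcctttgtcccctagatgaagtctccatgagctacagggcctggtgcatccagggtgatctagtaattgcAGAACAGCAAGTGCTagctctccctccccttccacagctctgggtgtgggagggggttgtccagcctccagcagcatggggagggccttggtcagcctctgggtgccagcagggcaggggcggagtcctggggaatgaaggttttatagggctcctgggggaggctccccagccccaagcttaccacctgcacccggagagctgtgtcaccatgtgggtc
KLK2: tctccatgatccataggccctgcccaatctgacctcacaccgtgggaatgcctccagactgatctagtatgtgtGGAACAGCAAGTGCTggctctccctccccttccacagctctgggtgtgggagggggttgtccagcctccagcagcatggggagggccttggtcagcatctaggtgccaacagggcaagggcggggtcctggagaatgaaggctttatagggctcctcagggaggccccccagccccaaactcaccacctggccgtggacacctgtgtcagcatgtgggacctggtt
LINC00844: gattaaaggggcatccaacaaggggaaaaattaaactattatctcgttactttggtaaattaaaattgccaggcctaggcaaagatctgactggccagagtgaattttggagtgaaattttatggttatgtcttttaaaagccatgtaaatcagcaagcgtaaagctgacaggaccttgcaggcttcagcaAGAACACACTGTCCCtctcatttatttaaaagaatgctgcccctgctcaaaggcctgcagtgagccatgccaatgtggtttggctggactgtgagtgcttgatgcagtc
FKBP5: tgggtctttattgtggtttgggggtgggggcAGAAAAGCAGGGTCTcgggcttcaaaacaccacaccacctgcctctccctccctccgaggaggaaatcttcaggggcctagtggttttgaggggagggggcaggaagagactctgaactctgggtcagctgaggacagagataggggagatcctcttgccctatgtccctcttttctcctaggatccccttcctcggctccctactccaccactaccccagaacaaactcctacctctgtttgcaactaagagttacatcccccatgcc
The match began at position -170 in KLK3 with 2 mismatches and at -176 in KLK2 with 3, and these elements were identical at 14 of 15 letters. In LINC00844 it began at -59 with 2 mismatches, and in FKBP5 at -219 with 3. The motif reads the same on both strands. Matches with up to 3 mismatches were found in 11% of all 27305 promoters in the RefSeq table and in 5.97% of the 10392 promoters found for genes tested. The share was 7.28% of 206 genes risen by at least 1 log2 unit and 5.84% of 154 genes fallen by as much, close to that of all genes tested. It was 6 of 28 classical targets (21.4%) and 3 of 14 among the 15 highest (21.4%), against 0 of 11 among the 15 lowest. Those 3 were KLK2, LINC00844 and FKBP5, shown above. The half-site AGAACA or its reverse complement TGTTCT, which is also one arm of the full motif, lay in 9.07% of promoters of genes tested, 9.22% of the genes risen by at least 1 unit and 9.74% of the genes fallen by as much. It lay in 4 of 14 among the 15 highest (28.6%), 2 of 11 among the 15 lowest (18.2%) and 3 of 28 classical targets (10.7%). These sets are small. Arrays do not measure binding, and distal elements lie outside these windows.

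The 15 genes that fell most had changes between -2.16 and -4.00. OPRK1, the kappa opioid receptor and a member of the androgen-repressed list, read 252, 243 and 259 with DHT, against 4215, 4317 and 4221 with EtOH. The change of -4.00 ± 0.08 (adjusted p = 5.40e-11), 16.0-fold on the log2(intensity + 16) scale, was the largest fall of all genes tested, with every DHT array below every EtOH array. AMIGO2, a leucine-rich adhesion protein, read 13.0, 26.1 and 15.5 with DHT, against 367, 358 and 359.7 with EtOH. Its DHT arrays were near background and the change was -3.48 ± 0.16 (adjusted p = 2.28e-08). MID1, a microtubule-bound ubiquitin ligase, read 60.2, 58.2 and 68.6 with DHT, against 701, 749 and 698 with EtOH, a change of -3.23 ± 0.11. IL1RN, the interleukin-1 receptor antagonist, read 86.4, 84.6 and 94.0 with DHT, against 789, 839.5 and 736 with EtOH, a change of -2.94 ± 0.08. Both fell without overlap (adjusted p = 1.67e-09 for MID1 and 4.86e-10 for IL1RN). Their probe sets above the array median ranged from -3.23 to -0.40 for MID1 and from -2.94 to -0.66 for IL1RN.

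Other genes of the 15 lowest had EtOH means from 126 (CCDC83) to 4710 (LRRN1). MYRIP, which links myosin to secretory granules, read 399.6, 373 and 399 with DHT, against 2672, 2838 and 2636 with EtOH, a change of -2.75 ± 0.05. ACKR3, a scavenging chemokine receptor also called CXCR7, read 498, 555 and 513 with DHT, against 2884, 2969 and 2977 with EtOH, a change of -2.46 ± 0.05. Both stayed well above the array median with DHT. The transcription factor MYB read 39.7, 47.8 and 45.2 with DHT, against 295, 303 and 297 with EtOH, a change of -2.39 ± 0.06, and the death-associated kinase DAPK1 changed by -2.54 ± 0.15. The collagen gene COL5A2 changed by -2.92 ± 0.13, the leucine-rich membrane protein LRRN1 by -2.43 ± 0.06, the mannosidase MAN1A1 by -2.35 ± 0.06 and TMEM140 by -2.52 ± 0.08. CSMD1 (-2.22 ± 0.05), GASK1B (-2.17 ± 0.07) and CCDC83 (-2.16 ± 0.10) completed the 15. For AMIGO2, DAPK1 and CCDC83 the DHT mean was below the median of every array.

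The list of androgen-repressed genes held 25 names, of which 16 were tested; 12 fell, 2 rose and 2 did not pass, with a median of -1.02. All genes tested fell in 22.3% of cases. UGT2B15 and UGT2B17, which conjugate DHT and its metabolites to glucuronic acid, both fell. UGT2B17 read 346, 332 and 321 with DHT, against 1024, 1023 and 997 with EtOH, a change of -1.56 ± 0.06 (adjusted p = 3.79e-09), and UGT2B15 changed by -1.88 ± 0.06 and UGT2B28 by -1.06 ± 0.13. These transcripts are near-identical, and their probe sets may bind each other's RNA. BCHE, butyrylcholinesterase, read 48.8, 47.2 and 45.3 with DHT, against 211, 212 and 245 with EtOH, a change of -1.92 ± 0.06, and CAMK2N1, an inhibitor of CaM kinase II, read 2542, 2495 and 2579 with DHT, against 8064, 7886 and 7713 with EtOH, a change of -1.63 ± 0.04. The growth factor binding protein IGFBP3 fell by 1.10 and DDC, dopa decarboxylase, by 0.92. SI fell by 1.61, PRKD1 by 0.98, PEG3 by 0.62 and PPFIA2 by 0.37.

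Members of the repressed list that rose were ST6GALNAC1, a sialyltransferase that makes the sialyl-Tn antigen, and TMEFF2, a transmembrane protein of prostate. ST6GALNAC1 read 1143, 1180.0 and 1233 with DHT, against 171, 174 and 133 with EtOH, a change of 2.78 ± 0.08 (adjusted p = 6.71e-10), opposite to the name of its list. TMEFF2 read 13879.8, 13593 and 14177 with DHT, against 11429, 11537 and 11374 with EtOH, a change of 0.28 ± 0.04. MYC, a growth regulator listed there because androgen lowers it in other settings, read 2437, 2429 and 2240.0 with DHT, against 2182, 2589.6 and 2009 with EtOH. Its arrays overlapped and the difference of 0.07 ± 0.08 did not pass (adjusted p = 0.526), nor did that of HSD17B6, -0.37 ± 0.16 (adjusted p = 0.0881).

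Among steroid receptors, pioneer factors, chaperones and coregulators, 20 of 26 were tested; 5 rose and 7 fell, with a median of 0.03. That is, 25% rose and 35% fell, against 18.6% and 22.3% of all genes tested. The glucocorticoid receptor NR3C1 was the member that fell most. It read 26.8, 22.9 and 25.1 with DHT, against 64.4, 75.3 and 78.9 with EtOH, a change of -1.11 ± 0.09 (adjusted p = 2.17e-06), with the DHT arrays below the median of all arrays. The coactivators NCOA2 and NCOA1 fell by 0.78 and 0.43. NCOA2 read 1600.0, 1652 and 1604 with DHT, against 2864, 2792 and 2697 with EtOH (adjusted p = 6.25e-08). GATA2, a pioneer factor for the androgen receptor, fell by 0.47 and the homeobox factor HOXB13 by 0.31, and neither gene's arrays overlapped. Members that rose included PIAS1, a SUMO ligase (0.79 ± 0.05), and GRHL2, an epithelial factor (0.76 ± 0.04, adjusted p = 1.21e-07). For FOXA1 the difference was 0.06 ± 0.05 (adjusted p = 0.351), for the chaperones HSP90AA1 and HSP90AB1 0.03 ± 0.03 and 0.02 ± 0.04, and for FKBP4, the relative of FKBP5, 0.06 ± 0.05. These 4 differences did not pass.

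Of 18 tested enzymes of androgen metabolism 5 rose and 4 fell, with a median of -0.02. In shares 27.8% rose and 22.2% fell, against 18.6% and 22.3% of all genes tested, so the share that fell was that of the background. The 3 UGT2B genes above and AKR1C1 made up the falls. AKR1C1, which reduces DHT and progesterone, had a value of -0.45 ± 0.09 that rests on a probe set open to its near-identical relatives. Leaving out probe sets of that type gave 0.011, from a probe set below the array median. The other AKR1C1 probe set above the median, of the same open type, gave -0.40. HSD17B11, an oxidizing hydroxysteroid dehydrogenase, rose by 0.67 ± 0.06, and CYP3A5, which hydroxylates testosterone, by 0.41 ± 0.09. STS, which frees steroids from sulfate, rose by 0.38 ± 0.05 (adjusted p = 8.46e-05).

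Of 22 genes of cholesterol synthesis and uptake tested, 14 rose and 3 fell, with a median of 0.40. In this list 63.6% rose and 13.6% fell, against 18.6% and 22.3% of all genes tested. HMGCS1, the synthase that makes HMG-CoA, read 3242, 3419.8 and 3417 with DHT, against 1529, 1526 and 1591 with EtOH, a change of 1.11 ± 0.05 (adjusted p = 8.68e-09). SCAP, which escorts the SREBP transcription factors, read 1163, 1128 and 1121 with DHT, against 548, 601 and 559 with EtOH, a change of 0.98 ± 0.06. Later enzymes of the pathway rose less, with SQLE, squalene epoxidase, at 0.78 ± 0.04, SC5D at 0.64 ± 0.04, DHCR7 at 0.55 ± 0.05 and LSS at 0.48 ± 0.08. Of the proteins that hold SCAP in the endoplasmic reticulum, INSIG1 read 3467, 3450.4 and 3261 with DHT, against 2106, 2151 and 2117 with EtOH, and rose by 0.67 ± 0.05. INSIG2 read 308, 307 and 323 with DHT, against 679, 704 and 695 with EtOH, and changed by -1.11 ± 0.05. The pair thus moved in opposite directions, both past the test (adjusted p = 2.16e-06 and 3.63e-08). ABCG1, a cholesterol exporter, changed by -1.48 ± 0.08 and the sterol reductase TM7SF2 by -0.34 ± 0.06. For IDI1 the probe sets disagreed, between -0.27 and 0.89, and its value of 0.83 ± 0.04 comes from 1 that can bind related transcripts.

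Of 23 fatty acid and glycerolipid genes tested, 7 rose and 4 fell, with a median of 0.01. Among them 30.4% rose and 17.4% fell, against 18.6% and 22.3% of all genes tested, and the 47.8% that passed were near the 40.8% of all genes. The risen members included the enzymes of the synthesis chain. ELOVL7, which elongates saturated very long chains, read 4435, 4110.3 and 4356 with DHT, against 1286, 1255 and 1150.4 with EtOH, a change of 1.79 ± 0.05 (adjusted p = 3.93e-10). FASN, fatty acid synthase, read 1989, 2062 and 1877 with DHT, against 926, 963 and 885 with EtOH, a change of 1.08 ± 0.06. ACACA, which makes malonyl-CoA, rose by 0.73 ± 0.05, ELOVL5 by 0.64 ± 0.04 and ACLY, which supplies acetyl-CoA, by 0.40 ± 0.04. The desaturase SCD was at -0.01 ± 0.04 and the regulator SREBF1 at -0.06 ± 0.07, and neither passed. DGAT2, which completes triglycerides, changed by -0.42 ± 0.06 and GPAM, which starts glycerolipid synthesis, by -0.28 ± 0.06.

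Of 28 genes of protein folding and the unfolded protein response, 20 rose, 1 fell and 7 did not pass, with a median of 0.44. As shares 71.4% rose and 3.57% fell, against 18.6% and 22.3% of all genes tested. ERN1, which encodes the stress sensor IRE1-alpha, read 1263, 1276 and 1269.7 with DHT, against 452, 477 and 468 with EtOH, a change of 1.42 ± 0.04 (adjusted p = 8.07e-10). DNAJB9, a co-chaperone of BiP, read 3024, 3083 and 3199.5 with DHT, against 1102, 1220.4 and 864 with EtOH, a change of 1.55 ± 0.10. CREB3L4, a membrane-bound factor of prostate also called AIbZIP, read 2247, 2174 and 1972 with DHT, against 861, 955 and 814 with EtOH, a change of 1.27 ± 0.07. Folding enzymes rose by less. HSPA5, the chaperone BiP, read 7130.5, 7147 and 7179.6 with DHT, against 5346, 5254 and 5219 with EtOH, a change of 0.44 ± 0.04, and HSP90B1 rose by 0.44 ± 0.05 and PDIA4 by 0.41 ± 0.07. The member that fell was DDIT3, the stress factor CHOP, which read 686, 642 and 696 with DHT, against 816, 892 and 799 with EtOH, a change of -0.30 ± 0.06. Differences for ATF4 (-0.02 ± 0.04), ATF6 (-0.02 ± 0.04), TRIB3 (-0.17 ± 0.08) and XBP1 (0.20 ± 0.07) did not pass.

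Secretory transport genes, which move proteins into the endoplasmic reticulum and on to the Golgi, had 32 of 44 members risen (72.7%, against 18.6% of all genes tested) with a median of 0.31, and the other 12, between -0.07 and 0.21, did not pass. SEC24D, a cargo adaptor of COPII vesicles, read 1139, 1276 and 1195 with DHT, against 502, 484 and 466 with EtOH, a change of 1.29 ± 0.10 (adjusted p = 2.19e-06). SEC11C, a signal peptidase subunit, read 6046, 5980.3 and 5503 with DHT, against 3046, 3580.2 and 3065 with EtOH, a change of 0.85 ± 0.07. The translocon partner SSR3 rose by 0.80 ± 0.06, the cargo receptor LMAN1 by 0.52 ± 0.04 and the coatomer subunit ARCN1 by 0.47 ± 0.06. Rises were thus present at the translocon, in COPII and in COPI coats, although SEC24D was the member past 1 log2 unit.

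Of 30 glycosylation genes tested 14 rose and 5 fell, with a median of 0.14. On this list 46.7% rose and 16.7% fell, against 18.6% and 22.3% of all genes tested. UAP1, which makes UDP-GlcNAc, read 8340.1, 8168 and 8054 with DHT, against 2928, 2925 and 2534 with EtOH, a change of 1.55 ± 0.06 (adjusted p = 3.19e-09). GCNT1, which branches O-glycans, read 677, 655 and 685 with DHT, against 319.9, 311 and 339 with EtOH, a change of 1.02 ± 0.04, and the galactosyltransferase B4GALT1 rose by 0.78 ± 0.07. GALNT3, which starts O-glycans, read 1505, 1345 and 1503 with DHT, against 4807, 4674 and 4829.6 with EtOH, a change of -1.71 ± 0.05 (adjusted p = 6.61e-10). The other GALNT3 probe set above the array median gave -0.18. ST3GAL1, a sialyltransferase of O-glycans, changed by -1.05 ± 0.05 and FUT8, which adds core fucose to N-glycans, by -0.92 ± 0.06. With ST6GALNAC1 up and ST3GAL1 down, sialyltransferases of the list moved in both directions.

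Genes of polyamine synthesis rose at several steps. On the list that combines these with amino acid genes, 12 of 26 rose and 6 fell, with a median of 0.14. There 46.2% rose and 23.1% fell, against 18.6% and 22.3% of all genes tested. ODC1, ornithine decarboxylase, read 11278, 11217 and 11421 with DHT, against 7037, 6947 and 7214 with EtOH, a change of 0.68 ± 0.04 (adjusted p = 1.04e-07). SMS, spermine synthase, read 5475, 5507 and 5474 with DHT, against 2329.5, 2337 and 2345 with EtOH, a change of 1.23 ± 0.04, and SRM, spermidine synthase, rose by 0.48 ± 0.06. SAT1, which starts polyamine breakdown, rose too, by 0.87 ± 0.04. The methyltransferase GNMT rose by 2.34 ± 0.07 and the leucine carrier SLC43A1 by 1.12 ± 0.06. In contrast SLC7A5, another carrier of large neutral amino acids, read 232, 255 and 232 with DHT, against 367, 387 and 433 with EtOH, a change of -0.69 ± 0.06, and PSAT1 of the serine pathway changed by -0.32 ± 0.07. ASNS changed by -0.24 ± 0.05 by its brightest probe set. The mean of all its probe sets gave 0.077, but the other one was near background, at 14.5 with DHT and 7.52 with EtOH.

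On the glucose list 7 of 28 rose and 2 fell, with a median of 0.07. In all 32.1% passed, against 40.8% of all genes tested. By direction 25% rose and 7.14% fell, against 18.6% and 22.3% of all genes tested. The glucose transporter SLC2A3 read 134, 156 and 106 with DHT, against 6.44, 7.86 and 7.36 with EtOH, a change of 2.66 ± 0.14 (adjusted p = 6.03e-08) from a near-background baseline. HK2, a hexokinase, read 731, 678 and 770.1 with DHT, against 390.4, 403 and 354 with EtOH, a change of 0.90 ± 0.07, and PFKFB2, which controls the activator of phosphofructokinase, rose by 1.08 ± 0.09. Differences of several enzymes further down did not pass, with LDHA at 0.09 ± 0.04, ENO1 at 0.08 ± 0.03 and PGK1 at -0.03 ± 0.04, while the neuronal isoform ENO2 changed by -0.43 ± 0.07 and the phosphofructokinase PFKM by -0.17 ± 0.04. The PFKM call (adjusted p = 0.0116) ended when only the 6 shControl arrays were fitted.

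Cell cycle lists moved little. In DNA replication 6 of 40 rose and 6 fell, 30% in all against 40.8% of all genes, with a median of -0.06. The licensing factor CDC6 read 301, 273 and 311 with DHT, against 165, 151 and 193 with EtOH, a change of 0.75 ± 0.09 (adjusted p = 4.32e-05). Cyclin E2, CCNE2, read 345, 375 and 409 with DHT, against 699, 684 and 649.6 with EtOH, a change of -0.83 ± 0.07 (adjusted p = 2.40e-06), and these were the member that rose most and the member that fell most. On the mitosis list 11 of 32 fell (34.4%, against 22.3% of all genes tested), with a median of -0.12 and no change beyond -0.29, that of the checkpoint kinase BUB1B, which read 1334, 1289.8 and 1339 with DHT, against 1679, 1574 and 1598 with EtOH (adjusted p = 6.31e-04). The proliferation marker MKI67 was at -0.13 ± 0.07 and did not pass (adjusted p = 0.186).

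Luminal epithelial markers had 7 of 19 tested members risen and 3 fallen, that is 36.8% rose and 15.8% fell, against 18.6% and 22.3% of all genes tested. The keratins of luminal cells rose, with KRT8 reading 5894, 5617 and 5970.1 with DHT, against 2445, 2607 and 2510.4 with EtOH, a change of 1.20 ± 0.05, and KRT18 9834, 9435 and 9670.0 with DHT, against 4546, 5212 and 4704 with EtOH. Neither gene's arrays overlapped (adjusted p = 8.09e-09 and 8.61e-08). KRT19 read 166, 166 and 157 with DHT, against 20.4, 18.6 and 19.2 with EtOH, a change of 2.34 ± 0.04 (adjusted p = 2.74e-11) from a dim baseline. AZGP1, the secreted zinc-alpha-2-glycoprotein, read 773, 722 and 667 with DHT, against 229.9, 226 and 281 with EtOH, a change of 1.50 ± 0.11. The sum of the list's intensities was 45131 to 45654 with DHT, against 34607 to 36631 with EtOH. Its rise came mainly from KRT18, which averaged 9646 with DHT and 4821 with EtOH, and KRT8, at 5827 and 2521. The median change of the list was 0.06. EPCAM (-0.09 ± 0.05) and CDH1 (-0.06 ± 0.04), general epithelial adhesion genes, did not pass. The markers that fell were ELF3 at -0.76 ± 0.06, HOXB13 at -0.31 ± 0.04 and FOLH1, which encodes prostate-specific membrane antigen. FOLH1 read 789, 904 and 731 with DHT, against 1160.1, 1344 and 897 with EtOH, a change of -0.47 ± 0.13 (adjusted p = 0.0117), a call that ended when only the 6 shControl arrays were fitted.

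In the ETS family of transcription factors 6 of 19 tested members rose and 3 fell, and the 47.4% that passed were near the 40.8% of all genes tested. ELK4, a partner of serum response factor, read 2339, 2272 and 2438 with DHT, against 1118, 1101 and 1028 with EtOH, a change of 1.11 ± 0.05 (adjusted p = 1.02e-08). SPDEF, the prostate-derived ETS factor, read 1646, 1567 and 1499 with DHT, against 332, 366 and 347 with EtOH, a change of 2.12 ± 0.06, but its 5 probe sets gave differences between -0.12 and 2.53. ELF3, an epithelial member, read 184, 221 and 211 with DHT, against 361, 362 and 349 with EtOH, a change of -0.76 ± 0.06. ETV1, the factor rearranged in these cells, read 1326, 1290.4 and 1264 with DHT, against 1215, 1201 and 1029.8 with EtOH, and its arrays did not overlap. The difference was 0.17 ± 0.07 and just missed the threshold (adjusted p = 0.0624), while the mean of its 5 probe sets, which lay between 0.17 and 0.30, passed at 0.27 (adjusted p = 0.00438, where all alternatives ranged from 0.00438 to 0.698). It also passed with a pseudocount of 64, the filter at the 60th percentile, centred arrays, trended and robust variance, or EtOH replicate A left out.

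Growth factor and MAPK feedback genes had 10 of 23 members risen and 5 fallen, with a median of 0.13. Of these members 43.5% rose and 21.7% fell, against 18.6% and 22.3% of all genes tested. Of the insulin-like growth factor pathway, the docking protein IRS2 read 1297, 1190.1 and 1277 with DHT, against 224, 197 and 199.9 with EtOH, a change of 2.51 ± 0.07 (adjusted p = 6.74e-10), and the receptor IGF1R rose by 1.48 ± 0.06. The phosphatase DUSP4, which acts on MAP kinases, rose by 1.15 ± 0.10. SPRY4, a feedback inhibitor of receptor tyrosine kinases, read 65.9, 70.8 and 70.2 with DHT, against 146, 156 and 148 with EtOH, a change of -0.97 ± 0.12, and the receptor ERBB2 read 864, 845 and 859 with DHT, against 1305, 1288 and 1337 with EtOH, a change of -0.60 ± 0.04. Members of this list thus moved both ways.

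**Figure D3:**
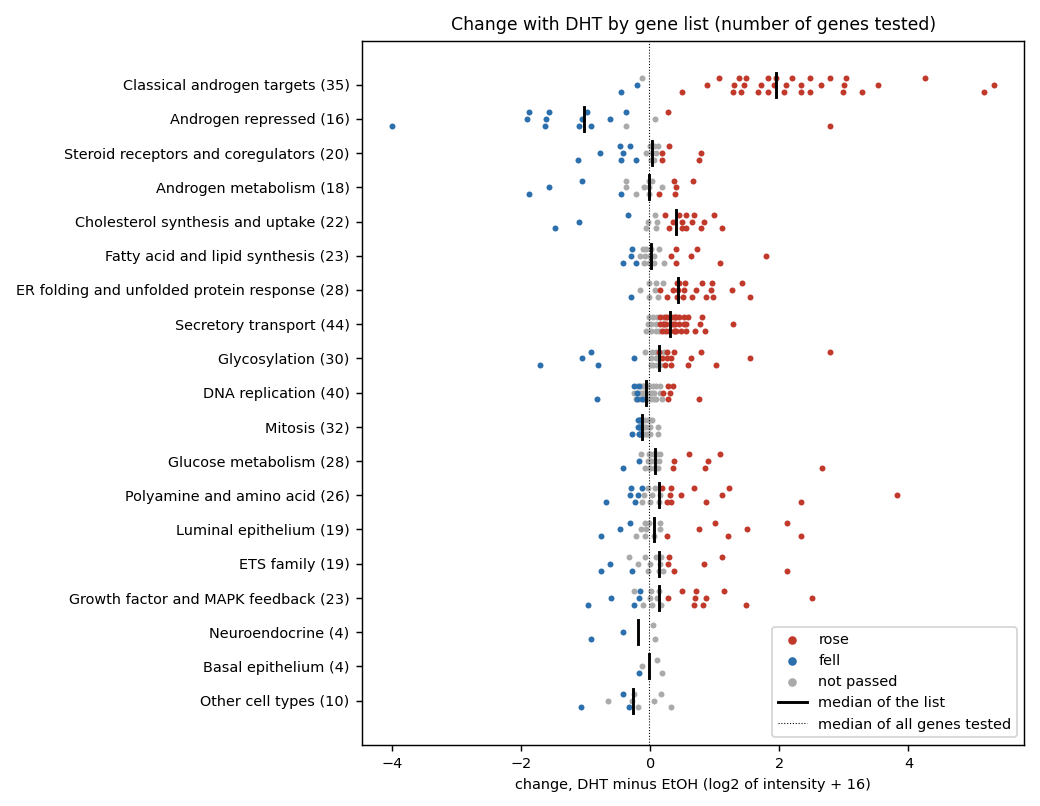
Change with DHT (horizontal axis, log2 of intensity + 16, DHT minus EtOH) of each tested member of the 19 gene lists, with the number tested in brackets, red for risen, blue for fallen and grey for not passed. Black bars are list medians and the dotted line is the median of all genes, -0.01. Classical targets (median 1.95) lie to the right and the androgen-repressed list (median -1.02) to the left, with folding (0.44), cholesterol (0.40) and secretory transport (0.31) above 0.

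Of 17 markers of stromal, endothelial and immune cells, 10 were above the filter, 3 fell and the other 7 did not pass. The lowest was VWF, an endothelial protein, which read 37.9, 49.1 and 35.9 with DHT, against 95.3, 114 and 101 with EtOH, a change of -1.07 ± 0.09. The summed intensity of the 17 was 1044 to 1111 with DHT, against 1229.9 to 1351 with EtOH. Basal markers summed to 1191 to 1225 with DHT, against 1292 to 1300.0 with EtOH, with 1 of 4 fallen. Neuroendocrine markers summed to 9733 to 9991 with DHT, against 13352 to 13555 with EtOH, with DDC and ENO2 of 4 fallen. The fall of the neuroendocrine sum came mainly from DDC, which averaged 4091 with DHT and 7770 with EtOH. Of all genes tested 22.3% fell. Defining markers below the filter included PTPRC of leukocytes, CDH5 of endothelium, PDGFRB of stroma, KRT5 and KRT14 of basal cells, and CHGA and SYP of neuroendocrine cells. These sums moved with the treatment, and their part in the other changes was not tested. Each group was 1 cell line, so these values do not stand for separate cell types. Arrays of whole cultures cannot tell a change in some LNCaP cells from a smaller change in all of them.

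The DHT response was set against that of the shETV1 cells to see where a lower ETV1 level went with a different androgen response. The targeted gene, ETV1, read 809, 892 and 803 with DHT, against 769, 714 and 752 with EtOH in shETV1 cells, lower than in any shControl array. The shControl means were 1294 with DHT and 1149 with EtOH, so the ETV1 signal was reduced in part and most of it remained. In those cells 4856 genes passed (37.9%). Of the 2382 genes risen in shControl cells 1957 rose in shETV1 cells too (82.2%, and 81.0% of the 2417 risen there). Of the 2855 that fell, 2071 also fell there (72.5%, and 84.9% of the 2439 fallen there), and 6 genes passed in opposite directions. The test of the difference itself passed for 13 genes (0.101%), 3 with the higher and 10 with the lower value in shControl cells, while 265 and 697 had an unadjusted p below 0.05. A gene outside these 13 is not shown to respond alike.

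Kallikreins were among the 13. KLK2 changed by 4.26 ± 0.11 in shControl cells, against 5.79 ± 0.11 in shETV1 cells, where it read 3818, 3473 and 3673 with DHT, against 38.2, 60.6 and 54.7 with EtOH. The responses differed by -1.53 ± 0.16 (adjusted p = 0.00812). KLK3 changed by 2.47 ± 0.07 in shControl cells, against 3.28 ± 0.07 in shETV1 cells, where it read 8148, 7321 and 7520.4 with DHT, against 724, 769 and 841 with EtOH. The difference was -0.80 ± 0.10 (adjusted p = 0.0199). For both genes the EtOH arrays of shETV1 cells were lower than the EtOH arrays of shControl cells, and their DHT arrays were lower too, by a smaller ratio. CTBP1-AS, a noncoding RNA antisense to the corepressor gene CTBP1, also rose less in shControl cells, with a difference of -0.75 ± 0.08 (adjusted p = 0.00812), with shControl arrays at 869, 860.2 and 844 with DHT, against 137, 147 and 160.5 with EtOH, and shETV1 arrays at 807, 781 and 860.3 with DHT, against 79.4, 74.7 and 75.5 with EtOH. The KLK3 difference missed the threshold when any 1 of the 3 shControl DHT arrays was left out (adjusted p of 0.0622 to 0.0806 in those fits).

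Stronger falls in shControl cells were seen for CAMK2N1 and KLHL1. CAMK2N1 changed by -1.63 ± 0.04 in shControl cells, against -0.97 ± 0.04 in shETV1 cells, where it read 4194, 4266 and 4099 with DHT, against 8147, 8272 and 8281 with EtOH, a difference between responses of -0.66 ± 0.05 (adjusted p = 0.00102). Its EtOH arrays were close in both kinds of cells, and the DHT arrays of shControl cells were the lower ones. KLHL1, a Kelch-like actin-binding protein, read 263, 250.2 and 269 with DHT, against 762, 752 and 740.5 with EtOH in shControl cells, and 809, 768 and 751 with DHT, against 1415, 1527 and 1459 with EtOH in shETV1 cells, a difference of -0.57 ± 0.06 (adjusted p = 0.00909). Stronger rises were seen for ANGPT2, TNFRSF19 and ACAD8. ANGPT2, the vessel-destabilizing ligand angiopoietin-2, read 151, 130.1 and 163 with DHT, against 11.6, 6.65 and 7.37 with EtOH in shControl cells, and 73.2, 61.0 and 86.2 with DHT, against 16.9, 24.6 and 16.6 with EtOH in shETV1 cells, a difference of 1.40 ± 0.18 (adjusted p = 0.0193). All these EtOH arrays were near background. The other ANGPT2 probe sets above the array median changed by 2.00, 1.29 and 0.96 in shControl cells, against 0.74, 0.56 and 0.57 in shETV1 cells. ACAD8, isobutyryl-CoA dehydrogenase of valine breakdown, differed by 0.46 ± 0.05 (adjusted p = 0.00968), with shControl arrays at 2928, 2958 and 3040.5 with DHT, against 799, 819.5 and 785 with EtOH, and shETV1 arrays at 2060.4, 2093 and 2119.8 with DHT, against 772, 799 and 754 with EtOH. TNFRSF19, a TNF receptor family member also called TROY, read 762, 714 and 773 with DHT, against 246, 245 and 248 with EtOH in shControl cells, and 1354, 1354 and 1396 with DHT, against 624, 752 and 726 with EtOH in shETV1 cells. Its EtOH arrays were higher in shETV1 cells, and the difference between responses was 0.59 ± 0.09 (adjusted p = 0.0483). Leaving out any 1 of the 6 shControl arrays ended the call for TNFRSF19, and leaving out shControl DHT A, DHT C, EtOH B or EtOH C that for ANGPT2 (adjusted p of 0.0522 to 0.0686).

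**Figure D4:**
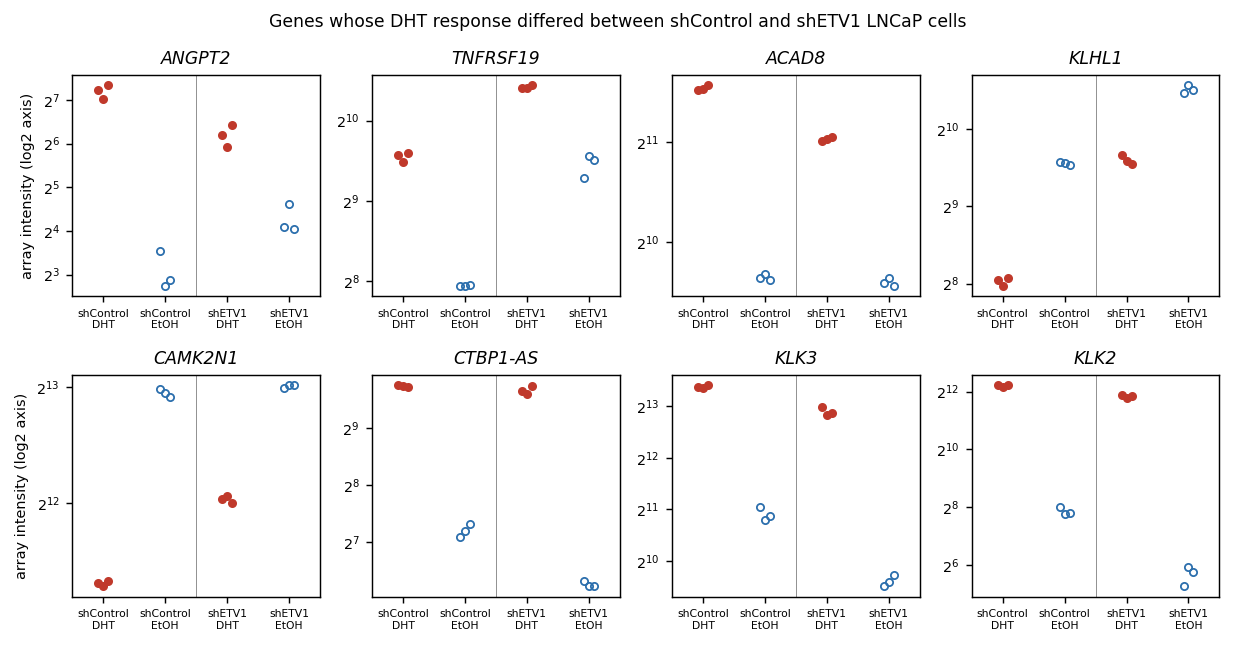
Array intensity (vertical log2 axis) in shControl cells with DHT and EtOH and in shETV1 cells with DHT and EtOH, 3 arrays each, for 8 genes whose DHT response passed the test of a difference between the cells, with DHT filled red and EtOH open blue. KLK2, KLK3 and CTBP1-AS have lower EtOH points in shETV1 cells, and ANGPT2 has higher DHT points in shControl cells.

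The same treatment gave another set of changes in VCaP cells. In 1 fit of all 24 arrays over 12305 genes, 5735 genes (46.6%) passed in VCaP siControl cells. Of the LNCaP genes that rose 1292 rose in VCaP cells too (54.8%, and 50.4% of those risen in VCaP). Of those that fell 1483 also fell (55.5%, and 46.8% of those fallen in VCaP), and 478 passed in opposite directions. The LNCaP response was higher than the VCaP response for 2164 genes (17.6%) and lower for 1765 (14.3%), 31.9% in all. Quantile normalization turned this split to 1935 higher and 2411 lower. The arrays of the lines also differed in background, since 628 to 688 probe sets were at the lowest value of 1 on the LNCaP shControl arrays and 9 to 13 on the VCaP siControl arrays with DHT, 6 to 11 with EtOH; line and array processing cannot be told apart, though each response is a difference within 1 line.

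Classical targets responded more in LNCaP cells: the difference passed for 32 of 35 upward and 1 downward. Of all 12305 genes 17.6% passed upward and 14.3% downward. The medians of the list were 1.95 in LNCaP and 0.53 in VCaP cells. KLK2 changed by 4.26 in LNCaP and 0.35 ± 0.09 in VCaP cells, with a difference of 3.90 ± 0.13 (adjusted p = 1.25e-14), the highest of all genes tested. STEAP4 changed by 5.17 in LNCaP and 1.72 ± 0.07 in VCaP cells, a difference of 3.45 ± 0.10, and LINC00844 by 4.15 and 0.61 ± 0.06, a difference of 3.55 ± 0.09. KLK3 changed by 2.47 in LNCaP and 0.61 ± 0.07 in VCaP cells, a difference of 1.87 ± 0.10 (adjusted p = 2.19e-11), and FKBP5 by 3.52 and 1.90 ± 0.07, a difference of 1.62 ± 0.09. Opposite directions were found for PTGER4, at 2.79 in LNCaP and -1.001 ± 0.09 in VCaP cells, a difference of 3.79 ± 0.12, and IRS2, at 2.51 in LNCaP and -0.96 ± 0.10 in VCaP cells, a difference of 3.47 ± 0.14 (adjusted p = 1.21e-14 and 3.07e-13). The list member with the lower response in LNCaP cells was ACP3, at -0.46 in LNCaP and 0.04 ± 0.04 in VCaP cells.

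Downward, the lowest difference was that of CSMD1, a large complement-regulatory membrane protein, which changed by -2.22 in LNCaP and 0.44 ± 0.18 in VCaP cells, a difference of -2.66 ± 0.25 (adjusted p = 8.92e-08). TMEM140 (-2.59 ± 0.17), the homeobox gene IRX3 (-2.52 ± 0.07), the orphan receptor GPR63 (-2.21 ± 0.20) and OPRK1 (-2.21 ± 0.11) followed. Of these OPRK1 also fell in VCaP cells, at -1.79 ± 0.07, while TMEM140 and GPR63 did not pass there, at 0.07 ± 0.12 and 0.28 ± 0.14. CSMD1 and IRX3 rose in VCaP cells, against falls in LNCaP cells, CSMD1 narrowly (adjusted p = 0.0481). IRX3 had arrays at 730.3, 681 and 670.2 with DHT, against 2439.7, 2558 and 2674 with EtOH in LNCaP cells and a change of 0.66 ± 0.05 in VCaP cells. On the androgen-repressed list 6 of 16 differences passed upward and 5 downward, against 17.6% and 14.3% of all genes. MYC arrays overlapped in LNCaP cells, with a difference of 0.07 that did not pass, while MYC fell in VCaP cells, at -2.30 ± 0.10, and the difference between lines of 2.37 ± 0.14 passed (adjusted p = 1.49e-10). PPFIA2 fell in both lines, at -0.37 in LNCaP and -2.91 ± 0.07 in VCaP cells and with a difference of 2.53 ± 0.10. In DNA replication 18 of 40 differences were higher in LNCaP cells and 3 lower, with medians of -0.06 in LNCaP and -0.32 in VCaP cells. Secretory transport ran the other way, with 2 of 44 higher and 15 lower and medians of 0.31 in LNCaP and 0.44 in VCaP cells. For both lists the shares to compare are the 17.6% higher and 14.3% lower of all genes.

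**Figure D5:**
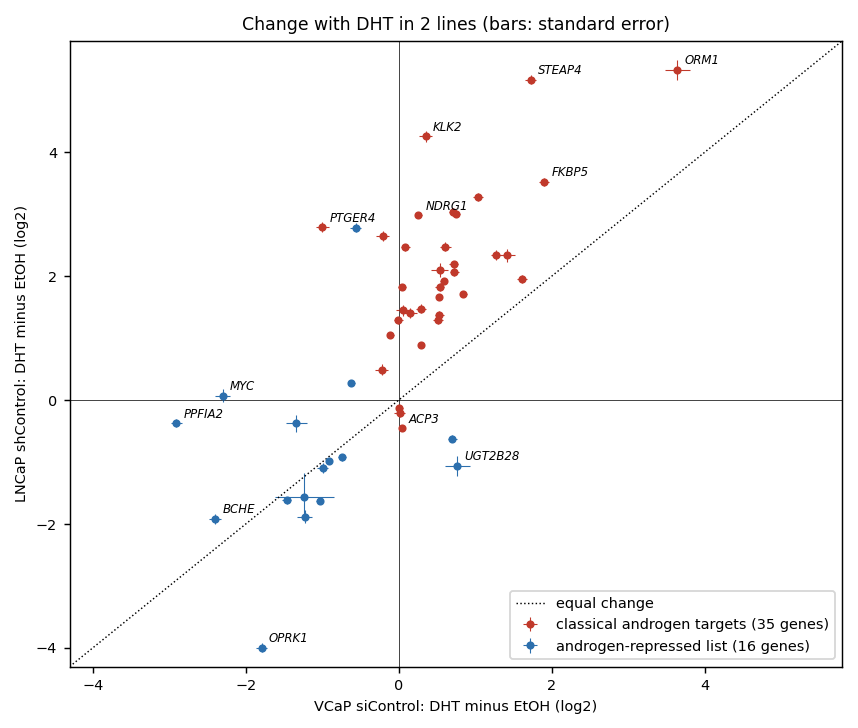
Change with DHT in LNCaP shControl cells (vertical axis) against VCaP siControl cells (horizontal axis), both log2 of intensity + 16, DHT minus EtOH, with bars for 1 standard error, for 35 classical androgen targets (red) and 16 genes of the androgen-repressed list (blue). Most red points lie above the dotted line of equal change, with STEAP4 at 5.17 in LNCaP and 1.72 in VCaP cells, and MYC lies near 0 in LNCaP and at -2.30 in VCaP cells.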

How the data were processed

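Total RNA was hybridised as biotinylated cRNA to HG-U133 Plus 2.0 arrays, per the labels. The authors deposited 1 linear intensity per probe set and array, for 54675 probe sets on 24 arrays; how these values were summarised, background-corrected and scaled, and any batch or scan day, are unstated in the labels and files. The number of arrays, 3 a group, limits the precision.

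From the deposited intensity, log2(intensity + 16) was computed. Of 42898 probe sets named in the platform annotation, 1801 with several genes were left out. For a gene with several probe sets the brightest on average was kept, and 12823 of 19775 genes above the array median on at least 3 of the 12 LNCaP arrays were tested. Limma 3.58.1 (R 4.3.3) fitted the 4 LNCaP groups together, and all 8 groups for the comparison with VCaP cells (12305 genes above the filter in both lines). Calls are Benjamini-Hochberg adjusted p below 0.05 over all genes tested. The response is the DHT minus EtOH difference, and the differences between responses are interaction contrasts, to which each line or knockdown contributes its own EtOH arrays. On simulated data with 200 of 12823 genes changed, the LNCaP shControl contrast recovered 96 of 100 genes changed by 1 log2 unit and 32 of 100 changed by 0.25, with 2 false calls. Far fewer genes were changed there than the 40.8% called in the real comparison, so these figures do not measure its recovery or errors.

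Named genes are the 15 highest and 15 lowest called changes without overlap of the arrays, up to 4 risen and 4 fallen members of each of 19 lists by smallest adjusted p, the 5 highest and 5 lowest called differences between responses, and a set of key genes; further members of a list are named by role or as exceptions, chosen after their values were seen. The members and lists were chosen with earlier results of these data known. Of 522 listed genes, 426 were tested, 56 lay below the filter and 40 were not analysed here, having no probe set of 1 gene. Of 85 named genes with 2 or more probe sets above the median, 80 had one sign in all of them. COL1A1, ERBB3, IDI1, RFC5 and SPDEF did not. One sign did not mean one size: differences ran from 0.34 to 3.31 for LIFR and from 3.52 to 4.48 for FKBP5. Promoters of 10392 genes tested were matched by symbol to RefSeq (GRCh38.p14) and scanned in Python 3.11.15; figures were drawn with matplotlib 3.10.9. Deviations of same-lettered shControl DHT and EtOH arrays from their group means correlated at -0.07, -0.02 and 0.09, so the letters were not taken to pair arrays. Alternatives covered the pseudocount, filter, scaling, probe set, samples in the fit, variance model, replicate block, covariates for the control ratios, threshold and each array left out.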

Additional observations from a re-analysis of the deposited data

Results flagged for a closer look

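The test passed for 13 genes, of which 8 are named here. It was the test of the difference between the DHT responses of shControl and shETV1 LNCaP cells. The shETV1 arrays were not left out in turn. The difference (log2, shControl minus shETV1) was 1.40 for ANGPT2, 0.59 for TNFRSF19 and 0.458 for ACAD8, all with a stronger rise in shControl cells. It was -0.567 for KLHL1 and -0.656 for CAMK2N1, which fell more in shControl cells, and -0.751 for CTBP1-AS, -0.801 for KLK3 and -1.53 for KLK2, which rose less in shControl cells.

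For 10 genes the test of the difference between the responses of LNCaP shControl and VCaP siControl cells passed with the most extreme values. The difference (log2, LNCaP minus VCaP) was 3.90 for KLK2, 3.79 for PTGER4, 3.55 for LINC00844, 3.47 for IRS2 and 3.45 for STEAP4. It was -2.21 for OPRK1, -2.21 for GPR63, -2.52 for IRX3, -2.59 for TMEM140 and -2.66 for CSMD1. Within VCaP cells PTGER4 and IRS2 fell and IRX3 and CSMD1 rose, the opposite of LNCaP cells.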

How the results depend on the processing

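The counts of risen and fallen genes stayed within 1.5 times their values under every alternative run, except that 113 genes fell by at least 1 log2 unit with a pseudocount of 64 and 133 with the mean of all probe sets, against 204. Leaving out 1 shControl array at a time gave 2053 to 2453 risen and 2471 to 2682 fallen genes. Differences from shETV1 cells were the least stable. The 3 higher genes became 7 with a pseudocount of 64, 7 after quantile normalization, 0 without the filter and 0 with the replicate block, and the 10 lower genes became 5 without the filter and 1 with the block. At an unadjusted p below 0.05 limma gave 467 higher and 830 lower without the filter, and 253 higher and 654 lower with the block. With 1 shControl array left out there were 1 to 2 higher and 6 to 9 lower genes. Without the filter the calls for ANGPT2, TNFRSF19, ACAD8 and KLK3 ended. With the block those for KLK2, KLK3, CTBP1-AS, KLHL1, ACAD8, ANGPT2 and TNFRSF19 ended (limma adjusted p of 0.0597 to 0.126). The block groups arrays by the replicate letters of the titles. Whether these letters pair arrays was checked by correlation in shControl cells only, not in shETV1 cells. It left 2283 risen and 2746 fallen genes in the main comparison. Differences from VCaP cells ranged from 1923 to 2215 higher and 1506 to 1711 lower genes with 1 shControl array left out. Signs turned for ASNS (0.077) and ERBB3 (0.056) with the mean of all probe sets, and for AKR1C1 (0.011) and IDI1 (-0.27) without probe sets open to related transcripts. For ASNS and AKR1C1 the turned sign involved a probe set below the array median. The cause was not tested. Of all values for named genes recomputed under the alternatives, 76 for the DHT response and 24 for the difference from shETV1 cells kept their sign but no longer passed. Dim genes carry a change that depends on the pseudocount.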

Other observations

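Genes outside the lists, chosen after their values were seen, also moved with DHT in LNCaP shControl cells. KLF5, a zinc finger factor of epithelia, read 620.3, 616 and 675 with DHT, against 113, 87.0 and 96.4 with EtOH, a change of 2.51 ± 0.12 (adjusted p = 3.04e-08). AKAP12, a scaffold for protein kinase A, rose by 2.98 ± 0.07, and coagulation factor F5 by 2.84 ± 0.15. The peptide transporter SLC15A2 rose by 2.76 ± 0.07, the lysyl oxidase LOX by 2.64 ± 0.16 and the germ cell kinase MAK by 2.64 ± 0.13. GREB1, a hormone-responsive coregulator, rose by 2.33 ± 0.07 and the cytokine signalling inhibitor SOCS2 by 2.05 ± 0.06. The chemokine receptor CXCR4 read 165, 156 and 163 with DHT, against 33.1, 40.5 and 29.6 with EtOH, a change of 1.82 ± 0.12, while ACKR3, which shares its ligand CXCL12, changed by -2.46 ± 0.05.

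Several developmental and signalling genes fell. EGLN3, an oxygen-sensing prolyl hydroxylase, read 122, 108 and 114 with DHT, against 432, 442 and 416 with EtOH, a change of -1.77 ± 0.05 (adjusted p = 6.67e-10). The homeobox genes IRX3 and IRX5 changed by -1.86 ± 0.05 and -1.51 ± 0.06, and FZD3, a WNT receptor, by -1.88 ± 0.05, whereas FZD5, another receptor of that family, rose by 2.26 ± 0.05. The adaptor GRB10 changed by -1.80 ± 0.05 and the tight junction protein OCLN by -1.66 ± 0.04. CTBP1, a corepressor gene, read 986, 923 and 914 with DHT, against 2947, 3059 and 2446 with EtOH, a change of -1.56 ± 0.07, while its antisense RNA CTBP1-AS changed by 2.42 ± 0.06.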
